A study of Mus musculus with 12 samples.

Results

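The complement genes described here are C1qa, C1qb, C1qc, C3, Cfb, Cfp, Serping1, C3ar1 and C5ar1, 9 of the 22243 genes in the deposited table, chosen by symbol. They were measured by RNA sequencing in M1-activated bone marrow-derived macrophages (BM-Mɸs) of 6 ErbB4myeKO mice and 6 ErbB4FF littermates, 1 of each genotype from each of 6 litters. The comparison asked whether loss of the receptor tyrosine kinase ErbB4 in myeloid cells altered these transcripts. The ErbB4myeKO mice carried LysMCre together with loxP-flanked (floxxed) ErbB4, and the ErbB4FF controls carried the floxxed ErbB4 alleles without Cre. The floxxed locus and the C57Bl/6 strain name were therefore common to both groups, and LysMCre is expressed from the Lyz2 locus, which is active in the myeloid lineage. Bone marrow was grown in conditioned media with macrophage colony-stimulating factor (M-CSF), and all 12 cultures were exposed first to IFN-γ (100 U/mL, 16 h) and then to LPS (100 ng/mL, 6 h), so no unstimulated library was compared. Age and sex are not on the labels.

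Complement is a set of plasma and cell-surface proteins that marks microbes and dying cells. C1q, built from the A, B and C chains, opens the classical pathway, and C3 is the protein on which all routes converge. Factor B and properdin, the products of Cfb and Cfp, form and stabilize the alternative pathway convertase. Most plasma complement comes from the liver, whereas macrophages are a main source of C1q and also make C3, factor B and properdin. C1 inhibitor (Serping1) stops the proteases of C1, and C3ar1 and C5ar1 are the G protein-coupled receptors for the fragments C3a and C5a.

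The C1q genes lie next to each other on mouse chromosome 4, where the annotation (GENCODE M21, GRCm38) places C1qb at chr4:136880129-136886187, C1qc at chr4:136889804-136893065 and C1qa at chr4:136895917-136898803, all on the minus strand. The span from C1qb to C1qa is 18675 bases and holds these 3 genes alone. The RefSeq promoter table (GRCm38.p6) had entries for 6 of the 9 genes, namely C1qb, C1qc, C3, Cfp, C3ar1 and C5ar1. The 250 bases before the annotated start are printed, 5′ to 3′ on the strand of the gene, for C1qb, the most abundant of the C1q transcripts, for C3, whose level separated litters, and for C3ar1, the member at an unadjusted limma p under 0.05 with all litters. The last 4 bases of the C3ar1 window, which GENCODE places inside the gene, are left out. Capitals mark matches to the motifs searched.
C1qb, chr4:136886201-136886450, minus strand: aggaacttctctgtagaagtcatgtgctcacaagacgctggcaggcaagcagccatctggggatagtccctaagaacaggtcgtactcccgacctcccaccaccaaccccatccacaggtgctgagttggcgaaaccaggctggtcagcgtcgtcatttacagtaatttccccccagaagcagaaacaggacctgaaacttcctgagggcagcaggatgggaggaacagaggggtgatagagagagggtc
C3, chr17:57228137-57228386, minus strand: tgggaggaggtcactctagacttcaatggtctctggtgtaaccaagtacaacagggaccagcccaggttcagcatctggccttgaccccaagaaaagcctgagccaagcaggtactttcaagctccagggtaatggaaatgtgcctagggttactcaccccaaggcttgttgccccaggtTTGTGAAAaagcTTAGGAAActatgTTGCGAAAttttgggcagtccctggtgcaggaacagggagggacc
C3ar1, chr6:122856162-122856407, minus strand: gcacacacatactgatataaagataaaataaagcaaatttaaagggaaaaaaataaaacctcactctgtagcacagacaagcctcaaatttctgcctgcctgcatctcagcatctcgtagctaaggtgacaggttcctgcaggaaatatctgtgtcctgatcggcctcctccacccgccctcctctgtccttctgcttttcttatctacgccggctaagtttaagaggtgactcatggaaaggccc

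The motifs were searched on both strands of the 250 bases and were named for factors that act downstream of IFN-γ and LPS or in macrophages. Among them were the ISRE core of interferon regulatory factors (GAAANNGAAA, in 2.98% of 32851 promoters of the same length), a C/EBP motif (TTNNGNAA, 36.8%), the NF-κB motif (7.25%) and a PU.1 motif (GAGGAAG, 10.6%). The C3 window held 3 C/EBP matches, at 70 to 63, 58 to 51 and 45 to 38 bases before the start, which stand close together in the capitals above. They did not overlap. The C1qb, Cfp and C3ar1 windows held no match to these letters. For C1qc and C5ar1 the RefSeq start lies inside the GENCODE gene, so that 151 and 202 of the 250 bases are transcribed by the latter annotation, and their windows are not described. These matches describe the sequence and not the binding of a factor.

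The genes that bear on the labels were read first. Erbb4 was near the limit of detection, at 0.583 ± 0.242 TPM in the libraries labelled ErbB4myeKO and 0.450 ± 0.132 TPM in those labelled ErbB4FF (SD, n = 6; exact permutation p = 0.250), and it was higher in the former in 4 of 6 litters. Lyz2, the lysozyme gene into which LysMCre is inserted, was at 8370, 7823, 6910, 10336.5, 13257 and 2964 TPM in the libraries labelled ErbB4FF and at 4272, 4395, 3116, 4491, 7563 and 7997 TPM in those labelled ErbB4myeKO. The library labelled ErbB4myeKO was at 0.434 to 0.570 of its littermate in litters 1 to 5 and at 2.70 times its littermate in litter 6, so that the Cre locus went against the labels in litter 6 (exact permutation p = 0.219 over the 6 litters). Group names here are those of the labels, and directions in litter 6 rest on them. Without litter 6 the log2 ratio of ErbB4myeKO to ErbB4FF was -0.28 for C1qa, -0.10 for C1qb, -0.13 for C1qc, -0.16 for C3, -0.61 for Cfb, -0.37 for Cfp, 0.31 for Serping1, -0.56 for C3ar1 and -0.0067 for C5ar1, and limma called none of the 9 genes.

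All 9 genes were expressed in every library, and all passed the filter on low values, a mean TPM of 1 or more (the abundance of a transcript per length, scaled to a fixed total in each library) that 8780 of the 22243 genes passed. Ranked by mean TPM among the genes tested, C1qb was at 19, C1qc at 43 and C1qa at 76, while Serping1, the lowest of the 9, was at 1970. No gene of the 9 was called different by genotype (limma, adjusted p under 0.05), where the share called over all genes tested was 0%, or 0 of 8780. At an unadjusted p under 0.05 limma returned 721 of 8780 genes (8.21%) and 1 of the 9, C3ar1, which was lower in ErbB4myeKO as 4.38% of genes tested were at that p. The unadjusted limma p of C3ar1 stayed under 0.05 in 6 of 17 alternative settings and ran from 0.0298 to 0.148 over them, and it was 0.123 without litter 6. Other genes of the 9 also fell under 0.05 in some settings. Their lowest unadjusted limma p was 0.00843 for Serping1 (without litter 4), 0.0250 for Cfp (without litter 1) and 0.0407 for C1qb (without litter 5). Average levels were lower in ErbB4myeKO for 8 of the 9, Serping1 being the exception, against 50.2% of all genes tested, although C5ar1 was close to 0 and changed its sign without litter 5. The median log2 ratio of ErbB4myeKO to ErbB4FF was -0.17 over the 9 genes and -0.000679 over all genes tested. No gene of the 9 went the same way in all 6 litters, which 4.82% of genes tested did, and none had groups that did not overlap, against 0.0456%. In bulk RNA, fewer cells making a transcript and less of it per cell cannot be told apart.

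Some genes separated litters 5 and 6 from the others in both genotypes. Mertk, a receptor of macrophages for dying cells, was at 35.4 to 63.1 TPM in these 4 libraries and at 134 to 175 TPM in the other 8, and Cd93 was at 10.9 to 16.6 against 26.3 to 62.6 TPM. S100a8 (72.1 to 253 against 24.8 to 42.5 TPM), S100a9 (42.7 to 103 against 1.42 to 30.8 TPM) and the membrane regulator Cd55 (5.60 to 21.3 against 0.591 to 1.58 TPM) were higher there. These genes were chosen after their values were seen, and the share of all genes tested that separated these litters was not computed. Of the 9 genes, C3 alone had levels in litters 5 and 6 that did not overlap with those in the others. In litter 5 the principal transcripts held 71.4% to 74.7% of the TPM of all transcripts, against 59.0% to 64.9% in the other litters. Without litters 5 and 6, the log2 ratio of ErbB4myeKO to ErbB4FF was -0.39 for C1qa (against -0.26 with all litters), -0.19 for C1qb (-0.14), -0.22 for C1qc (-0.17), -0.31 for C3 (-0.12), -0.87 for Cfb (-0.47), -0.48 for Cfp (-0.39), -0.72 for C3ar1 (-0.64) and 0.14 for Serping1 (0.42). It was 0.05 for C5ar1 (-0.02), which thereby changed its sign, and none of the 9 genes was called by limma.

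**Figure D1:**
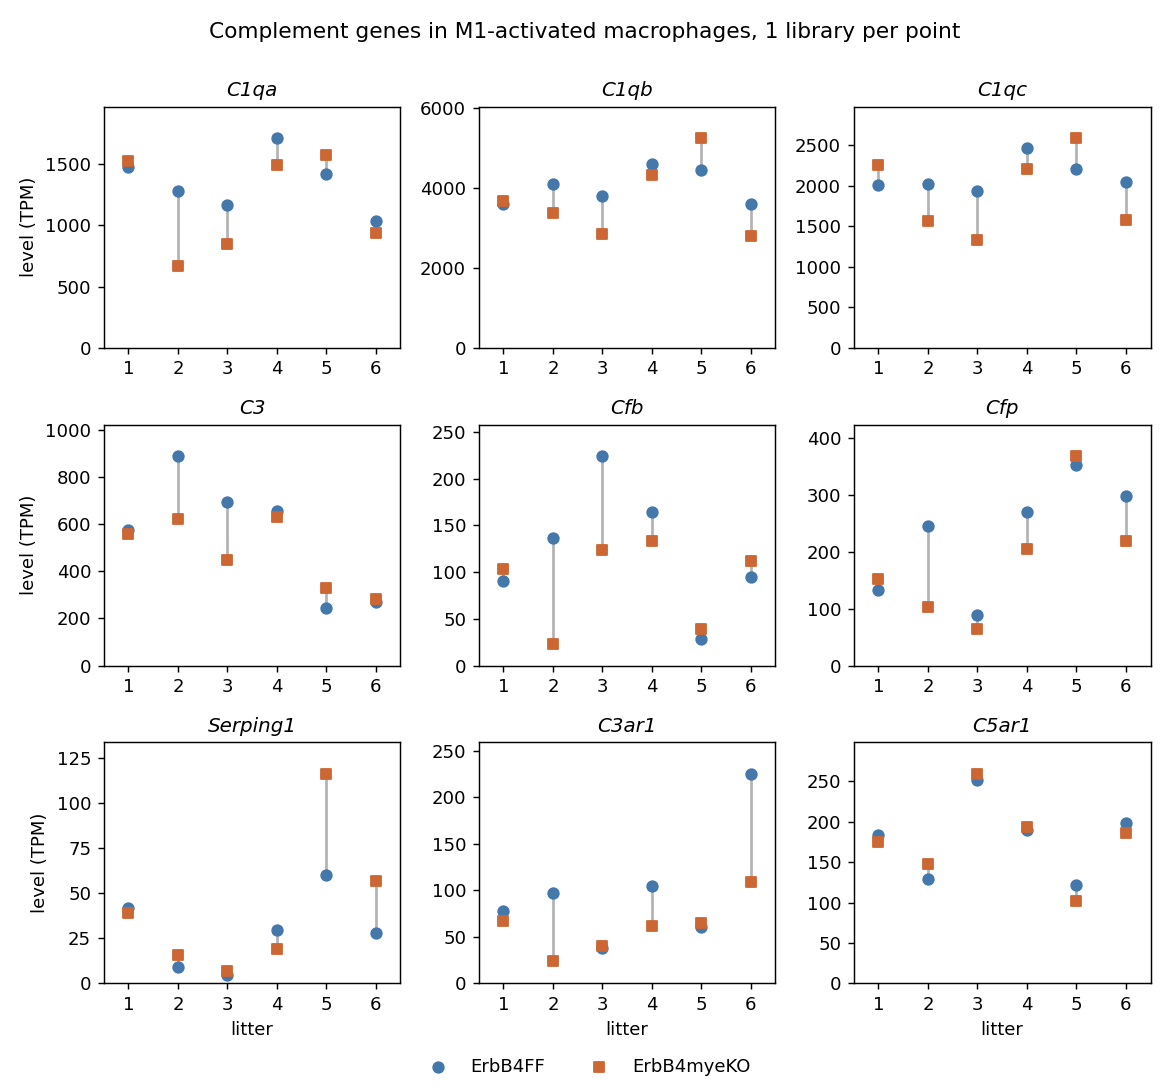
Level of each complement gene (TPM, axis from 0) in each of the 12 libraries, with ErbB4FF as circles, ErbB4myeKO as squares and a line joining the littermates of each of the 6 litters. The genotypes overlap in every panel, C3 is lowest in litters 5 and 6, and Serping1 is highest in the litter 5 library labelled ErbB4myeKO, at 116 TPM.

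C1qb, which encodes the B chain of C1q, was the most abundant of the 9 transcripts. Its level in litters 1 to 6 was 3582, 4087, 3784, 4606, 4433 and 3583 TPM in ErbB4FF and 3665, 3367, 2840, 4324, 5238 and 2805 TPM in ErbB4myeKO. The highest and the lowest value both belonged to libraries labelled ErbB4myeKO, and the ErbB4FF values lay between them. On average over litters the log2 ratio came to -0.14 ± 0.25 (SD, n = 6 litters; exact permutation p = 0.188), with a limma adjusted p of 0.663.

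C1qc, the gene of the C chain, ranked the litters by ratio in the same order as C1qb. It stood at 2004, 2017, 1936, 2468, 2201 and 2042 TPM in ErbB4FF and at 2254, 1568, 1326, 2211, 2585 and 1581 TPM in ErbB4myeKO. The library labelled ErbB4myeKO was above its littermate in litters 1 and 5 and below it in the other 4. The log2 ratio, averaged over litters, came to -0.17 ± 0.31 (SD, n = 6 litters; exact permutation p = 0.281), with a limma adjusted p of 0.663.

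C1qa, the gene of the A chain, had 1473, 1279, 1163, 1710, 1421 and 1036 TPM in ErbB4FF and 1526, 664, 846, 1490, 1573 and 934 TPM in ErbB4myeKO. The litter 2 library labelled ErbB4myeKO was the lowest of all 12, and litters 1 and 5 were again the ones with the higher ErbB4myeKO value. Averaged over the litters, the log2 ratio stood at -0.26 ± 0.40 (SD, n = 6 litters; exact permutation p = 0.156; limma adjusted p = 0.6249), and it was -0.12 without litter 2.

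Since the chains join in equal numbers to make C1q, their balance within a library was also compared. Of the summed TPM of the 3 chains, C1qb made up 53.7% ± 1.82 (SD, n = 6) in ErbB4FF and 54.7% ± 3.72 in ErbB4myeKO, C1qc 28.3% ± 1.23 and 28.3% ± 1.45, and C1qa 18.0% ± 1.91 and 17.0% ± 2.88. The share of C1qa was between 11.9% and 20.9%, and its lowest value was that of the litter 2 library labelled ErbB4myeKO. The log2 level of each chain against the mean of the 3 differed between genotypes by -0.07 ± 0.19 for C1qa, 0.05 ± 0.11 for C1qb and 0.02 ± 0.09 for C1qc (SD, n = 6 litters), with exact permutation p of 0.531, 0.406 and 0.594 (0.594 for each when adjusted over the 3 tests). The summed level was between 6661 and 8784 TPM in ErbB4FF and between 5012 and 9396 TPM in ErbB4myeKO, so that the C1q transcripts varied over a wider range in ErbB4myeKO; the difference in spread was not tested.

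**Figure D2:**
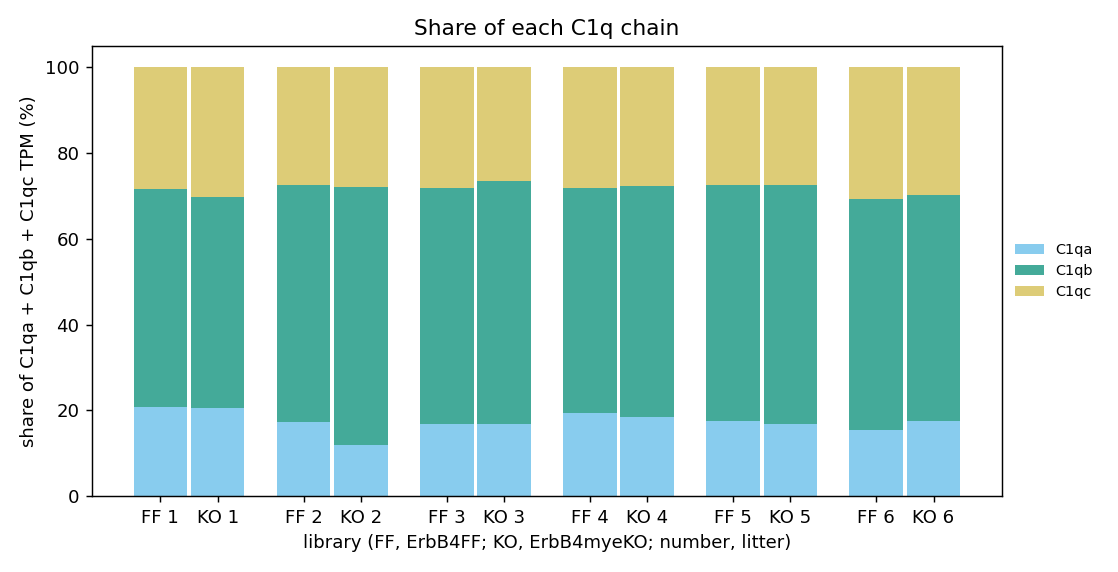
Share of each C1q chain in the summed TPM of C1qa, C1qb and C1qc (percent, stacked to 100) in each of the 12 libraries, littermates side by side. C1qb takes between 49.2% and 60.1%, C1qc between 26.5% and 30.7% and C1qa between 11.9% and 20.9%, with the smallest C1qa share in the litter 2 library labelled ErbB4myeKO.

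C3 (chr17:57203970-57228136) encodes the protein whose cleavage to C3b tags a target. It was measured at 573, 888, 694, 653, 246 and 270 TPM in ErbB4FF and at 559, 622, 448, 631, 329 and 281 TPM in ErbB4myeKO. Litters 5 and 6 (246 to 329 TPM in either genotype) did not overlap with litters 1 to 4 (448 to 888 TPM). The log2 ratio of littermates was between -0.05 and 0.06 in litters 1, 4 and 6, below -0.5 in litters 2 and 3 and 0.42 in litter 5. Its log2 ratio averaged -0.12 ± 0.39 (SD, n = 6 litters; exact permutation p = 0.375; limma adjusted p = 0.783). It was -0.02 without litter 3, -0.05 without litter 2 and -0.23 without litter 5.

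Cfb (chr17:34856374-34862518), the gene of the protease subunit of the alternative convertase, had 90.9, 136, 224, 165, 28.8 and 95.015 TPM in ErbB4FF and 103, 23.6, 124, 133, 39.0 and 112 TPM in ErbB4myeKO. Of the 12 values the lowest was that of the litter 2 library labelled ErbB4myeKO, and both libraries of litter 5 were also low. The within-litter log2 ratio averaged -0.47 ± 1.10 (SD, n = 6 litters; exact permutation p = 0.406; limma adjusted p = 0.707), with 3 litters lower and 3 higher. Without litter 2 it was -0.06. All of the 31-mers of the Cfb transcript also occur in other Cfb transcripts and 81.9% occur in Gm20547, an overlapping gene that runs from chr17:34856412-34882042, so the estimate for Cfb is uncertain. Gm20547 itself was given between 0 and 0.611 TPM.

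Cfp (chrX:20925454-20931555), which encodes properdin, had 133, 246, 88.4, 271, 354 and 299 TPM in ErbB4FF and 152, 104, 63.6, 206, 369 and 219 TPM in ErbB4myeKO. Litter 3 was the lowest and litter 5 the highest in both genotypes. For this gene the log2 ratio averaged -0.39 ± 0.50 (SD, n = 6 litters; exact permutation p = 0.125; limma adjusted p = 0.603), with 4 litters lower. Litter 2 gave the largest difference, at -1.24, and the mean without it was -0.21.

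Serping1 (chr2:84765387-84775444), the inhibitor of C1r and C1s, was the gene of the 9 with the higher average in ErbB4myeKO. It stood at 41.8, 9.19, 4.72, 29.8, 60.0 and 28.0 TPM in ErbB4FF and at 39.3, 15.9, 7.10, 19.1, 116 and 56.6 TPM in ErbB4myeKO. It was higher in ErbB4myeKO in litters 2, 3, 5 and 6 and lower in litters 1 and 4, and the libraries spanned a 24.6-fold range, the widest of the 9 genes. Across litters the log2 ratio averaged 0.42 ± 0.65 (SD, n = 6 litters; exact permutation p = 0.188; limma adjusted p = 0.621). The summed TPM of 6 stromal markers, cells in which Serping1 is also active, was lowest in the litter 3 library labelled ErbB4myeKO (9.28 TPM) and highest in that of litter 1 (103 TPM). The same sum was 40.7 TPM in ErbB4FF and 76.0 TPM in ErbB4myeKO in litter 5, 42.0 and 71.9 TPM in litter 6, 15.9 and 42.3 TPM in litter 2, and 65.5 and 37.1 TPM in litter 4. In these 4 litters the sum was higher in the littermate with more Serping1, whereas in litters 1 and 3 it was not. The part of stromal RNA in the Serping1 values was not tested.

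**Figure D3:**
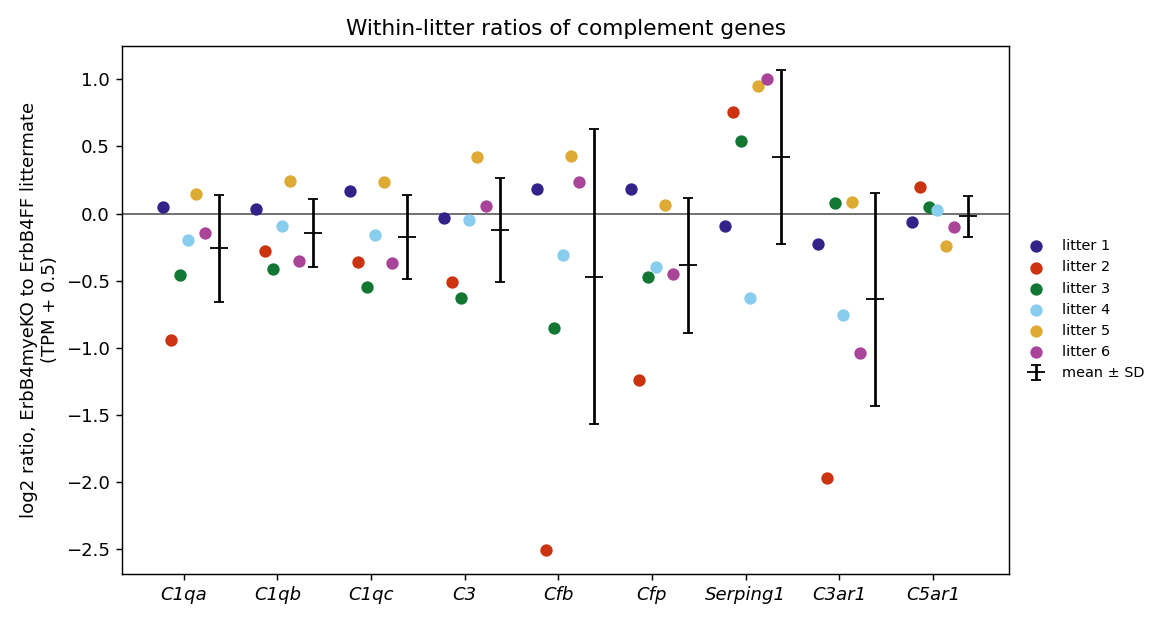
Log2 ratio of ErbB4myeKO to its ErbB4FF littermate, computed on TPM + 0.5, for each complement gene (x axis), with a point for each of the 6 litters and the mean ± SD beside them. The points lie on both sides of 0 for every gene, litter 2 is the lowest point for C1qa, Cfb, Cfp and C3ar1, and the points of C5ar1 lie between -0.24 and 0.20.

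C3ar1 (chr6:122847138-122856161), the receptor for C3a, had the smallest limma p of the 9 genes in the main fit, but not in every setting. Without litter 6 the limma p of Cfp (0.1214) was below that of C3ar1 (0.1230), as it was without litter 1 (0.0250 against 0.0525). Without litter 4 that of Serping1 was lower (0.00843 against 0.0938), and with the Y-linked covariate that of C1qa (0.0735 against 0.0840). The level of C3ar1 was 78.2, 97.6, 38.2, 104, 61.2 and 225 TPM in ErbB4FF and 66.6, 24.6, 40.3, 61.7, 64.9 and 109 TPM in ErbB4myeKO. It was lower in ErbB4myeKO in litters 1, 2, 4 and 6 and differed by 0.08 on the log2 scale in litters 3 and 5. The average log2 ratio over litters came to -0.64 ± 0.79 (SD, n = 6 litters; exact permutation p = 0.125), and limma gave -0.64 ± 0.27 (SE) with an adjusted p of 0.603 and an unadjusted p of 0.0462, rank 663 of 8780. The 95% interval of the mean over litters was -1.47 to 0.19. Without litter 2, in which the log2 ratio was -1.97, the mean was -0.37.

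C5ar1 (chr7:16246743-16259540), the receptor for C5a, had 183, 129, 251, 190, 121 and 199 TPM in ErbB4FF and 176, 148, 259, 194, 102 and 186 TPM in ErbB4myeKO. Each ErbB4myeKO value was near that of its littermate, and litter 3 was the highest in both genotypes. Between littermates the log2 ratio averaged -0.02 ± 0.15 (SD, n = 6 litters; exact permutation p = 0.719; limma adjusted p = 0.929), with a 95% interval of -0.18 to 0.14. C5ar1 has 2 transcripts in the table, which share 96.5% to 99.9% of their 31-mers and were summed. The ratio of C3ar1 to C5ar1 TPM was 0.427, 0.757, 0.152, 0.549, 0.504 and 1.13 in ErbB4FF and 0.379, 0.166, 0.156, 0.318, 0.634 and 0.587 in ErbB4myeKO, lower than in the littermate in litters 1, 2, 4 and 6.

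The depth behind these levels differed. The exponent of the authors' mean natural log of normalized estimated counts was 21754 for C1qb, 15182 for C3, 12820 for C1qc and 6583 for C1qa. It was 2167 and 352 for the 2 transcripts of C5ar1, 1832 for C3ar1, 1693 for Cfp, 1441 for Cfb and 249.965 for Serping1, so counting error was largest for Serping1.

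The order of mean levels in ErbB4FF was C1qb, C1qc, C1qa, C3, Cfp, C5ar1, Cfb, C3ar1 and Serping1, and the mean TPM of ErbB4myeKO fell in the same order. In ErbB4FF, C1qb over C1qc, C1qc over C1qa, C1qa over C3 and C3ar1 over Serping1 held in 6 of 6 libraries, each with the smallest exact permutation p that 6 libraries allow, 0.0312 (0.0625 when adjusted over the 8 neighbouring pairs). C1qb exceeded C1qc by 0.92 ± 0.09 and C1qc exceeded C1qa by 0.66 ± 0.19 on the log2 scale (SD, n = 6). C5ar1 over Cfb held in 5 of 6 libraries (exact permutation p = 0.0625). C3 over Cfp (exact permutation p = 0.125), Cfp over C5ar1 (0.5) and Cfb over C3ar1 (0.688) each held in 4 of 6. No neighbouring pair had an adjusted p under 0.05. In ErbB4myeKO, Cfp was above C5ar1 in 3 of 6 libraries, with a mean log2 difference of -0.10 that goes against the order of their mean TPM (exact permutation p = 0.75), and C3ar1 was above Serping1 in 5 of 6 libraries, with an exact permutation p of 0.125. C5ar1 was above Cfb in 6 of 6 of these libraries, by 1.18 ± 0.76 on the log2 scale (SD; exact permutation p = 0.0312, adjusted 0.0625).

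Litter accounted for more of the variance of each gene than genotype did. Of the sum of squares of log2(TPM + 0.5), litter took between 62.1% (C1qc) and 96.8% (C5ar1), where the median gene tested had 78.1%. Genotype took 16.3% for C3ar1, 10.4% for C1qa, 10.04% for C1qc and 7.76% for C1qb, and between 0.0788% and 6.05% for the other 5, where the median gene had 2.49%. Without litter 6, the genotype share was 21.4% for C3ar1, 11.6% for C1qa, 8.41% for Cfb, 5.74% for C1qc, 5.18% for Cfp and 4.52% for C1qb. The litter share was also high for Serping1 (91.9%), C3 (89.9%) and Cfp (85.3%). Without litter 6 it fell to 38.1% for C3ar1, from 62.7%, and was between 65.2% and 96.9% for the other 8 genes. Litter has 5 degrees of freedom in this sum and genotype 1.

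Within-litter ratios of the 9 genes were compared in 36 pairs to see which genes rose and fell together from litter to litter, with exact permutation p-values adjusted over the 36 pairs. C1qb and C1qc gave Pearson r = 0.970 (exact permutation p = 0.00139, adjusted 0.05) and Spearman rho = 1 (exact permutation p = 0.00278, adjusted 0.05) over 6 litters, and r = 0.953 without litters 3 and 5, the 2 farthest from the median of C1qb. C1qa and C1qb gave r = 0.676 (exact permutation p = 0.129, adjusted 0.239) and C1qa and C1qc r = 0.729 (exact permutation p = 0.0917, adjusted 0.209), each with rho = 0.714 (exact permutation p = 0.136, adjusted 0.35). Without litters 2 and 5 these r were 0.795 and 0.902. C1qa was also compared with genes of the alternative pathway. With Cfb r was 0.975 (exact permutation p = 0.00278, adjusted 0.05) and rho was 0.943 (exact permutation p = 0.0167, adjusted 0.1), and with Cfp r was 0.955 (exact permutation p = 0.00833, adjusted 0.07) and rho was 0.886 (exact permutation p = 0.0333, adjusted 0.15). Without litters 2 and 5, r was 0.897 for C1qa and Cfb and 0.796 for C1qa and Cfp. Without litter 6, whose direction rests on the labels, r was 0.973 for C1qb and C1qc, 0.991 for C1qa and Cfb, 0.974 for C1qa and Cfp and 0.983 for C1qb and C3, so that the order of the closest pairs was not fixed. For C1qb and C3, r was 0.779 over 6 litters (exact permutation p = 0.0736, adjusted 0.209) and 0.242 without litters 3 and 5.

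C5ar1 had a negative r with each of the other 8 genes. With Cfb r was -0.904 (exact permutation p = 0.00417, adjusted 0.05) and rho was -1 (exact permutation p = 0.00278, adjusted 0.05), and r was -0.911 without litters 2 and 3 and -0.899 without litter 6. Over the levels of the 12 libraries, litter differences included, Cfb and C5ar1 had r = 0.702, so that the sign differed between levels and within-litter ratios. With C1qa r was -0.917 (exact permutation p = 0.00972, adjusted 0.07) and rho was -0.943 (exact permutation p = 0.0167, adjusted 0.1), and r was -0.724 without litters 2 and 5 and -0.920 without litter 6. Leaving out litters 2 and 5 turned the r of C3ar1 and C5ar1 from -0.669 to 0.539, so that this relation rests on those litters. Serping1 had r between -0.231 and 0.0617 with the other 8 genes, but between -0.831 (C1qb) and 0.869 (Cfb) once 2 litters were left out of each pair. Of the 36 pairs 22 had r above 0, 9 had an unadjusted exact permutation p of r under 0.05 and none had an adjusted p under 0.05. The same counts over pairs of all genes tested were not computed, so these counts are not a result about complement genes. All pairs share the same 12 libraries, and a TPM value also depends on all other transcripts of its library.

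**Figure D4:**
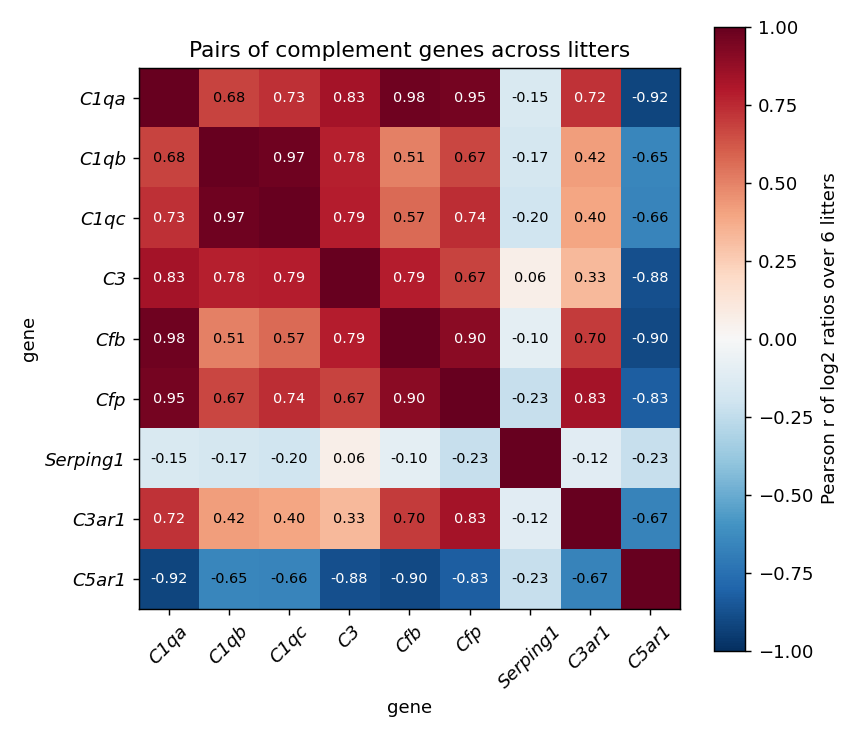
Pearson r of the within-litter log2 ratios of each pair of complement genes over 6 litters, from -1 (blue) to 1 (red), with the value in each cell. C1qb and C1qc (0.970), C1qa and Cfb (0.975) and C1qa and Cfp (0.955) are among the highest pairs, and the row of C5ar1 is negative throughout.

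A list of 48 other complement genes, ordered by role, set the 9 genes in their pathway. C4a was not analysed here, 13 genes passed the filter and 34 did not, of which 10 were at 0 in every library, and no gene below the filter had a mean above 0.515 TPM. Of the 13 tested, 5 were higher and 8 lower in ErbB4myeKO on average, none was called (0% of all genes), none had an unadjusted p under 0.05 (8.21% of all genes), and the median log2 ratio was -0.08. Among the genes that start the classical and lectin pathways 3 of 12 passed the filter, the proteases C1ra and C1s1 and the lectin Fcna, while Mbl1 and Mbl2, the mannose-binding lectins, were at 0 in every library. Of the central and alternative components C2 and C4b passed, and factor D (Cfd) was at 0. None of the 6 terminal components passed, and C5 (Hc) stayed at or below 0.0849 TPM. Of the membrane regulators 3 of 8 passed (Cd55, Cd59a and Cr1l), and of the receptors 4 of 7 (Itgam, Itgax, Itgb2 and Cd93).

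Itgb2 and Itgam, which form complement receptor 3, were the most abundant of these genes. Itgb2, which is also a chain of receptor 4, had 379 ± 79.5 TPM in ErbB4myeKO and 371 ± 128 TPM in ErbB4FF (SD, n = 6) and was higher in 5 of 6 litters (log2 ratio 0.09 ± 0.28, SD; exact permutation p = 0.531). Itgam, the alpha chain of receptor 3, had 114 ± 26.1 and 132 ± 33.1 TPM, was lower in 5 of 6 litters, and had a log2 ratio of -0.20 ± 0.24 (SD; exact permutation p = 0.156). Itgax, the alpha chain of receptor 4, had 10.9 ± 3.08 and 8.33 ± 3.42 TPM, was higher in 5 of 6 litters, and had a log2 ratio of 0.44 ± 0.59 (SD; exact permutation p = 0.125). Itgax is also a dendritic marker, and the summed TPM of the dendritic markers, Itgax included, was higher in ErbB4myeKO in 5 of 6 litters. Ccr7, which the paper lists as an M1 gene, had the highest mean of them (47.6 TPM). Xcr1 (log2 ratio 0.63 ± 0.66, SD), Ccr7 (0.33 ± 0.43) and Clec9a (0.10 ± 1.70) were each higher in 5 of 6 litters. Below the filter, Zbtb46 was lower in 4 of 6 (-0.18 ± 0.30), Flt3 lower in 2 and higher in 2, and Siglech at 0. The part of dendritic cells in the Itgax values was not tested. Over all genes tested, 14.3% were lower and 13.9% were higher in ErbB4myeKO in at least 5 litters. Litter 6, whose direction rests on the labels, was the exception for Itgam and was among the 5 for Itgb2, Itgax and the dendritic sum. The limma adjusted p was 0.603 for Itgam and for Itgax.

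Among the other genes, C4b, the classical convertase component, had 13.4 ± 6.79 TPM in ErbB4myeKO and 17.2 ± 9.945 TPM in ErbB4FF and was lower in 5 of 6 litters (log2 ratio -0.27 ± 0.51, SD). C4b has a near-identical copy, C4a, so that its estimate is uncertain. The protease genes C1ra (log2 ratio 0.07 ± 0.46) and C1s1 (0.26 ± 0.77), whose products Serping1 inhibits, were each higher in 3 of 6 litters. Cd59a, a membrane inhibitor of the terminal complex, had 1.48 ± 0.961 TPM in ErbB4myeKO and 1.89 ± 0.795 TPM in ErbB4FF and was lower in 5 of 6 litters (log2 ratio -0.35 ± 0.43, SD; exact permutation p = 0.0938). Cr1l, the rodent membrane regulator Crry, had a log2 ratio of 0.03 ± 0.22, and Cd93, once named a C1q receptor, had -0.09 ± 0.37. Their limma adjusted p was at least 0.641 for all 6 genes.

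**Figure D5:**
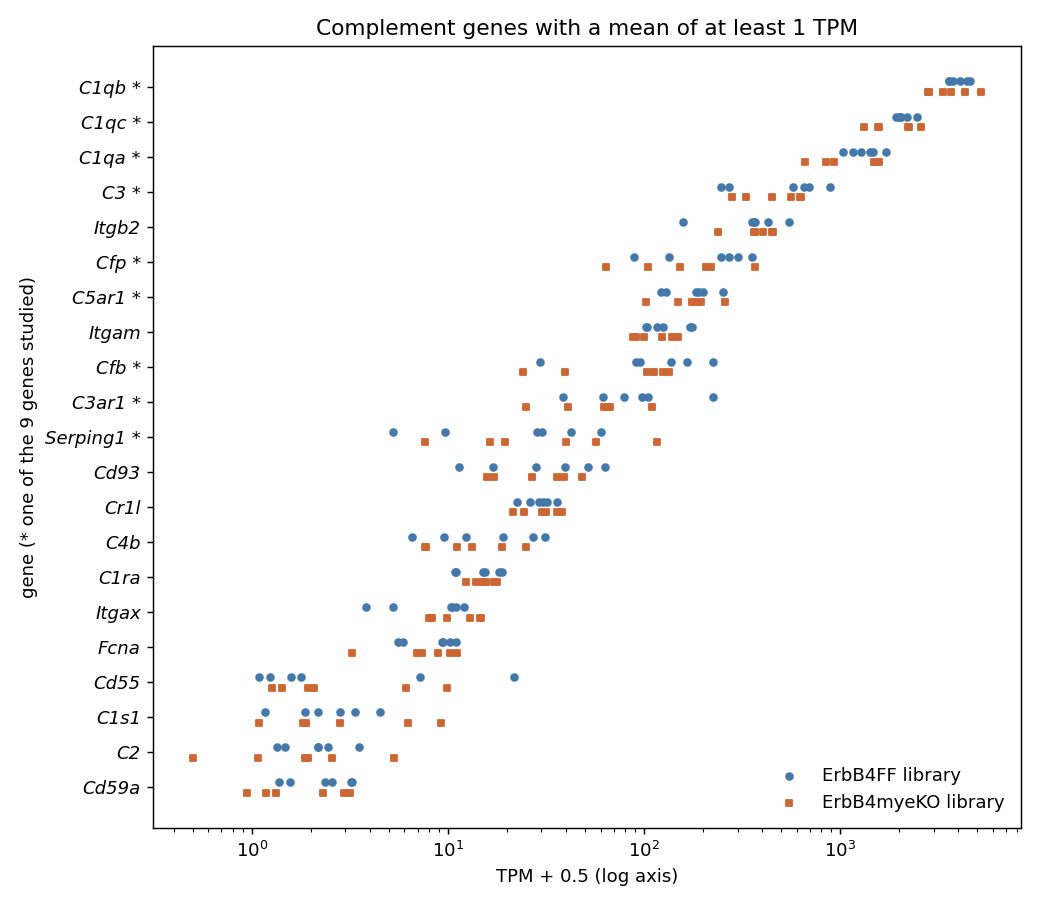
Level of the complement genes named here that passed the filter on low values in each of the 12 libraries (TPM + 0.5 on a log axis), sorted by mean, with ErbB4FF as circles and ErbB4myeKO as squares and asterisks on the 9 genes studied. C1qb, C1qc, C1qa and C3 head the list, and the genotypes overlap for every gene.

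For each of the 9 genes, the genes tested whose log2(TPM + 0.5) tracked it most closely over the 12 libraries were listed by Pearson r, a description that includes the differences between litters. Cfp had Frmd8 (r = 0.982) and Wdr1 (0.974) among its closest, and Serping1 had Ms4a4d (0.984), Phlda3 (0.983) and Rgs16 (0.977). C5ar1 had Tpp2 (0.971), Pi4k2b (0.949) and Cd1d1 (0.942), and C3 had Htt (0.959), Napsa (0.956) and Csf2rb2 (0.952). C3ar1 had Lipg (0.952), Cd300ld (0.931) and the interferon-induced gene Rsad2 (0.930). C1qa had Sdf4 (0.914), Hrh2 (0.905) and Pcp4l1 (0.897), C1qb had Rtf2 (0.934), Manbal (0.926) and the antigen-loading gene Tapbp (0.911), C1qc had Sdf4 (0.935), Gstt1 (0.927) and Tcn2 (0.927), and Cfb had Hcls1 (0.924), Acin1 (0.907) and Stx5a (0.906). Sdf4 was the gene that 2 of the C1q chains had in common. The C1q chains correlated with each other at r between 0.752 and 0.901 over the same 12 libraries.

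All 8 macrophage markers were present, with summed levels of 7179 to 15964 TPM in ErbB4FF and 8417 to 12521 TPM in ErbB4myeKO, and of 2708 to 7347 and 2602 to 6223 TPM without Lyz2. Among them Fcgr1, an Fc receptor, was lower in ErbB4myeKO in 6 of 6 litters (log2 ratio -0.86 ± 0.74, SD; limma adjusted p = 0.603) and Mertk was higher in 6 of 6 (0.14 ± 0.19, SD; limma adjusted p = 0.642), where 4.82% of genes tested went one way in all litters. Of 10 neutrophil markers 4 reached a mean TPM of 1, and their sum was 40.1 to 185 TPM in ErbB4FF and 39.7 to 371 TPM in ErbB4myeKO. S100a8, S100a9, Ngp and Camp made up most of it, reaching 253, 103, 18.4 and 10.5 TPM, and their log2 ratios were 0.30 ± 0.64, -0.24 ± 1.28, -0.36 ± 1.30 and 0.45 ± 0.41 (SD). Camp was higher in ErbB4myeKO in 6 of 6 litters (limma adjusted p = 0.603), S100a8 in 4, and S100a9 and Ngp in 3. The counts of 6 of 6 for Fcgr1, Mertk and Camp include litter 6, whose direction rests on the labels. Ly6g, Mpo and Elane stayed at or below 0.549 TPM and Retnlg was at 0. The part of other cells in the levels of the 9 genes was not tested. Summed markers were 15.9 to 97.9 and 9.28 to 103 TPM for stromal cells, 39.4 to 105 and 56.8 to 136 TPM for dendritic cells, and 0.297 to 27.6 and 0.723 to 24.8 TPM for B and plasma cells, and they stayed below 1 TPM for T and NK cells and for erythroid cells. Summed markers of proliferating cells were 12.3 to 44.05 TPM in ErbB4FF and 20.99 to 39.0 TPM in ErbB4myeKO.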

How the data were processed

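Per the labels, the 12 libraries hold polyadenylated RNA of M1 cultures, 1 culture of each genotype for each of 6 litters, read as single ends of 75 bp. Reads were pseudoaligned by the authors with kallisto, and the authors deposited TPM, which are not counts, for 28808 transcripts marked principal by APPRIS. They also deposited sleuth's mean natural log of normalized estimated counts, used for depth, and sleuth's p-values and q-values and log2 ratios, which were not used. The submitters' processing notes name mm10, CASAVA, kallisto and sleuth, with no versions. As TPM carry no read depth, precision rests on the spread between litters.

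The 405 repeated lines were dropped and TPM summed per gene. Genes whose mean TPM was 1 or more (8780 genes) entered a limma fit (limma 3.58.1, R 4.3.3, eBayes with trend) of log2(TPM + 0.5) on genotype and litter, the latter being the block, and p-values were adjusted by Benjamini-Hochberg over all genes tested. Single values were tested two-sided and exactly by permutation, swapping the genotypes of littermates in all 64 ways, which allows no p below 0.0312. The 95% interval rests on the SD over litters. Other steps used Python 3.11.15, matplotlib 3.10.9, scipy 1.17.1, pandas 2.3.3 and numpy 2.4.6. The fit was tested on simulated data.

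Littermates share a number in the sample titles and also a batch label, and their log2 deviations correlated at r between 0.273 and 0.774 in the 6 litters. The members and gene lists were chosen with earlier results of these data known. Besides the 9 genes, the text names the 6 pathway genes with the highest mean TPM, the 3 higher and the 3 lower ones with the smallest limma p, and 3 genes closest to each of the 9 in profile, except for items that are not reported here. Other genes were named for their role or after their values were seen. The alternatives were no block, pseudocounts of 0.1 and 1, no filter or a filter at a mean TPM of 5, rescaling to an equal table total or by median ratios, limma without trend, a covariate from 4 Y-linked genes, the highest transcript alone, each litter left out and, chosen after seeing the data, litters 5 and 6 left out. C4a was not analysed here. Symbols and positions came from GENCODE M21 and promoter sequences from RefSeq.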

Additional observations from a re-analysis of the deposited data

How the results depend on the processing

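No gene of the 9 and no gene of the pathway list was called by limma under any alternative that was run. Over all genes, 1 gene was called without litter 3, Igkv1-88 (limma adjusted p = 0.0486), and 0 under the other settings, so that leaving out 1 litter at a time gave 0 to 1 calls. C5ar1 changed its sign in 2 settings, with a log2 ratio of 0.02286 without litter 5 and of 0.05269 without litters 5 and 6, and the cause was not tested. The other 8 genes kept their direction under all settings. Leaving out 1 litter at a time gave log2 ratios of -0.34 to -0.12 for C1qa, -0.22 to -0.09 for C1qb, -0.25 to -0.10 for C1qc, -0.23 to -0.02 for C3, -0.65 to -0.06 for Cfb, -0.50 to -0.21 for Cfp, 0.31 to 0.63 for Serping1, -0.78 to -0.37 for C3ar1 and -0.06575 to 0.02286 for C5ar1. Without the litter block, with the pairing of littermates ignored, limma called 0 genes and returned 75 genes at an unadjusted p under 0.05, against 721 with the block, and the block changed no call. The order of mean TPM kept 7 of its 8 neighbouring pairs without litter 3, and all 8 in the ErbB4myeKO libraries and without each other litter in turn. By the mean log2 difference, however, Cfp and C5ar1 were reversed in ErbB4myeKO (-0.10), with Cfp above C5ar1 in 3 of 6 libraries. Rescaling the libraries shifted the median log2 ratio of all genes to 0.02 at most. TPM hold no depth, and 6 litters limit what the tests can resolve.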
